A study of Mus musculus with 28 samples.

Results

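The comparison set splenic dendritic cells treated with angiotensin II (Ang II) together with 2-hydroxybenzylamine (2-HOBA) against vehicle-treated cells. It was defined from the sample titles alone, as 4 arrays of Ang II with 2-HOBA (written THOBA in the titles) and 7 vehicle arrays (written Sham), which made 11 of the 28 arrays of the series. The cells were primary dendritic cells from spleens of C57BL6/J wild-type mice 3 months old, so both groups shared genotype, strain, age and tissue and differed in Ang II and 2-HOBA together. The parts of the 2 agents in a difference cannot be told apart here. The other groups were wild-type cells with Ang II alone or with Ang II, hydralazine and hydrochlorothiazide, and NOX2 knockout cells with vehicle or Ang II. The series asked how oxidative stress shapes the expression profile of dendritic cells. Its design text places treatment after isolation from the spleen and its title names hypertension, which leaves unsettled if the agents were given to animals or to cells. Doses, duration and any sort or gate are not given in the sources used here. Replicates were labelled biological without saying which came from separate mice, so p-values measure the spread between these samples.

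Dendritic cells take up, process and present antigen and activate T cells with costimulatory molecules and cytokines. Ang II is the effector peptide of the renin-angiotensin system. It raises blood pressure and stimulates NADPH oxidases, whose phagocyte form is built on NOX2, the product of Cybb. 2-HOBA is a small amine that reacts with dicarbonyl products of lipid oxidation, among them the isolevuglandins, before these modify proteins. The spleen also holds red pulp macrophages, which clear aged red cells and recycle their iron, as well as monocytes and B cells, and a dendritic cell preparation can carry RNA of each.

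RNA was measured as 1 RMA log2 level per probe set, so a difference of 1 is a 2-fold difference. Of 19938 genes with a probe set of their own, 10452 lay above 5 on at least 3 arrays and were tested. The array labelled vehicle replicate 2 stood apart: its mean correlation with all other arrays was 0.852, against 0.935 to 0.956 for the other 10 arrays compared. Its Cybb level of 6.34 lay below the 6.41 to 7.18 of the 7 knockout arrays, although it was labelled wild type. Its level of Cyba, which was not the gene knocked out, was 6.29 and also lay below the knockout arrays, at 7.83 to 9.04. Its interquartile range of 1.92 was the lowest of the 28 arrays. It had 7445 genes above 5, against 8234 or more on every other array. The genotype of this array was not tested. A principal component analysis of 6617 probe sets without a gene name, picked as controls by identifier, placed on its first component the 4 arrays with 2-HOBA (-5.91 to 5.38) beside vehicle replicates 4 to 7 (0.34 to 17.82) and apart from vehicle replicates 1 to 3 (-61.1 to -20.93). This component held 27.7% of the variance of these probe sets. The number of sets was fixed at 3, and they were cut at the widest gaps along it that did not set 1 array apart. The wider gap between the array labelled replicate 2 (-61.1) and the next array (-35.81) was passed over by this rule. The cut used here lay between -19.26 and -5.91, and no label names the sets. There were therefore 3 comparisons: against all 7 vehicle arrays, without the array labelled replicate 2, and against vehicle replicates 4 to 7 alone. Where 3 values follow each other they stand in that order, and other values name their vehicle arrays. All 12 pan-dendritic markers listed lay above the level needed for testing. Their mean level was 7.52 to 7.87 with 2-HOBA, 7.69 to 7.99 on vehicle replicates 4 to 7 and 6.52 to 7.41 on vehicle replicates 1 to 3. The same filter was passed by all 15 B cell markers and all 17 red pulp macrophage markers on the array, so passing it does not show purity. The mean level of the B cell markers was 8.42 to 9.03 with 2-HOBA.

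Against all 7 vehicle arrays, no gene passed limma's test (Benjamini-Hochberg adjusted p below 0.05, 0% of genes). An unadjusted p below 0.05 was reached by 325 genes in the lower direction (3.11%) and 277 in the higher direction (2.65%). The smallest adjusted p was 0.205, for Alox5. All 4 arrays with 2-HOBA lay below all 7 vehicle arrays for 32 genes (0.306%) and above them for 35 (0.335%). Without the array labelled replicate 2, 1 gene fell, Cd300lf (0.00957% of genes), and the unadjusted counts were 631 lower (6.04%) and 167 higher (1.6%). Against vehicle replicates 4 to 7, no gene passed (0%), while 58 genes had a limma adjusted p below 0.10, 57 of them lower with 2-HOBA. The unadjusted counts there were 954 lower (9.13%) and 183 higher (1.75%). The 4 arrays with 2-HOBA lay below these 4 vehicle arrays for 896 genes (8.57%) and above them for 167 (1.6%). The median difference over all tested genes was 0.05, -0.02 and -0.10 in the 3 comparisons, and 41.15%, 54.8% and 66.5% of them lay lower with 2-HOBA. The differences and counts of lists below are read beside these values. When the array labelled replicate 2 was also left out of the estimate of the spread, a fit chosen after the data were seen, 70 genes fell (0.67%) and 3 rose (0.0287%) against vehicle replicates 4 to 7.

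**Figure D1:**
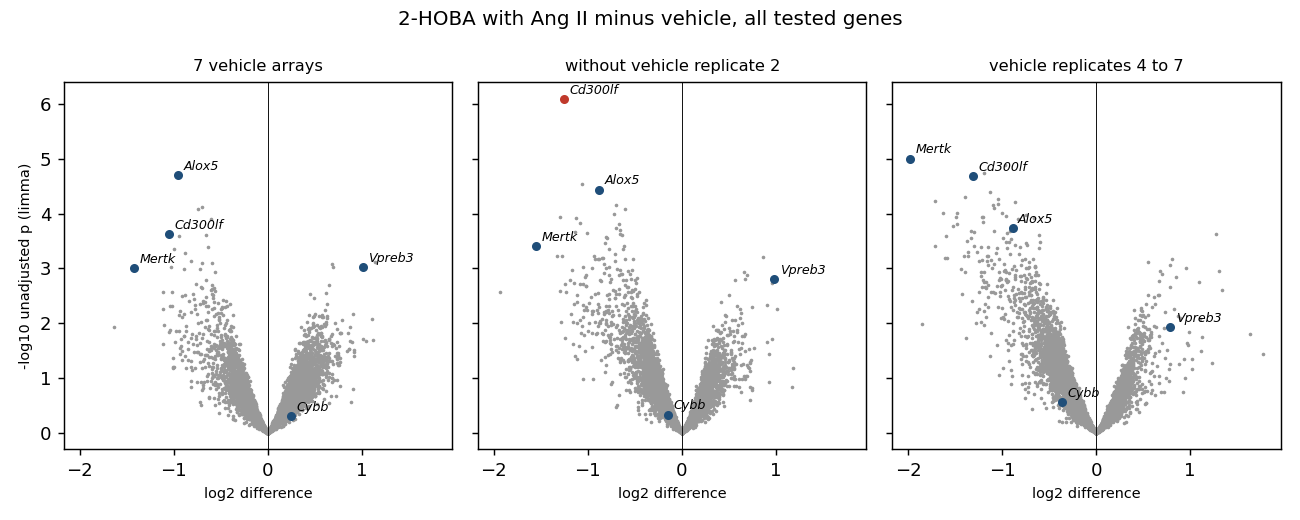
Log2 difference (Ang II with 2-HOBA minus vehicle, horizontal axis) against -log10 of limma's unadjusted p (vertical axis) for 10452 genes in the 3 comparisons; labelled genes are blue, and red marks Cd300lf, the 1 gene past the adjusted threshold. The arm on the lower side is the fuller one against vehicle replicates 4 to 7, where 954 genes reached an unadjusted p below 0.05 on the lower side and 183 on the higher.

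The promoters of Cd300lf, Alox5 and Dusp1 are shown because these genes carried the smallest p values or led a gene group described below. Each is the RefSeq sequence of the 250 bases before the annotated start (GRCm38.p6), 5′ to 3′ on the gene's own strand. The stretches were Cd300lf chr11:115133993-115134242, Alox5 chr6:116461179-116461428 and Dusp1 chr17:26508473-26508722, all on the minus strand. Capitals mark matches to AGGAAG (the ETS core), TATAAA (the TATA box), GGGCGG (the GC box) and TGACGTCA (the cAMP response element), searched on both strands.
Cd300lf: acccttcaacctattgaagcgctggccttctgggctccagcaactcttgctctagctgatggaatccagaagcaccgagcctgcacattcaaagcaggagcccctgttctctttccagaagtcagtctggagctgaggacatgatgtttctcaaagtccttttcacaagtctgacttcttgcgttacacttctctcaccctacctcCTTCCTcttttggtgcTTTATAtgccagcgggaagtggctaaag
Alox5: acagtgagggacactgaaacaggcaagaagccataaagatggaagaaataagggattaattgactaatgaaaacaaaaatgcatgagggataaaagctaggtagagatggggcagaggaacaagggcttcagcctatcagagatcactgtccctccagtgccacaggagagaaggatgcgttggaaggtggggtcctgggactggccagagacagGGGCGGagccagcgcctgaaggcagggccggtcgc
Dusp1: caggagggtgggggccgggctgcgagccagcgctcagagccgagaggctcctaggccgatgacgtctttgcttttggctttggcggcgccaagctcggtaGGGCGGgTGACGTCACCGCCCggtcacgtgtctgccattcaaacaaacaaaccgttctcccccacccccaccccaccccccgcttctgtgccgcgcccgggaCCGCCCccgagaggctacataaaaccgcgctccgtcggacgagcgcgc
The Cd300lf window held AGGAAG 44 bases and the TATA box 28 bases before the start, both on the opposite strand. The Alox5 window held a GC box 35 bases before the start. The Dusp1 window held the cAMP response element 143 bases before the start and GC boxes at 150, 135 and 48 bases, and the box at 135 followed the element directly with no shared base. Over 32851 RefSeq promoter windows, 29.5% held AGGAAG, 12.4% TATAAA, 32.7% GGGCGG and 1.55% TGACGTCA. No binding was measured, and the matches are descriptions of the letters only.

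Cd300lf (probe set 10392845) encodes an inhibitory receptor of the CD300 family on myeloid cells that recognises lipids such as phosphatidylserine. Its log2 level was 6.12, 5.43, 6.22 and 5.79 on the 4 arrays with 2-HOBA. On vehicle replicates 4 to 7 it was 7.03, 7.03, 7.29 and 7.44, on replicates 1 and 3 it was 6.78 and 7.27, and on the array labelled replicate 2 it was 5.71. The groups were separate except for that array, which lay between the values with 2-HOBA. Without it Cd300lf fell by 1.25 (SE 0.20, limma adjusted p = 0.00841), from 7.14 ± 0.24 (SD, n = 6) to 5.89 ± 0.36 (n = 4), and was 2.38-fold higher with vehicle. The difference was -1.05 (SE 0.25, limma adjusted p = 0.339) with all 7 vehicle arrays and -1.31 (SE 0.26, limma adjusted p = 0.0534) against replicates 4 to 7. The call without the array labelled replicate 2 was lost when 2-HOBA replicate 2 (limma adjusted p = 0.174) or replicate 4 (0.0825) was left out too. On the 4 arrays of Ang II alone, which lie in both array sets, the level was 6.16 to 6.63, given without a test.

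Alox5 (probe set 10547153) encodes 5-lipoxygenase, which starts leukotriene synthesis from arachidonic acid. Its log2 level was 4.30, 3.87, 4.46 and 4.03 with 2-HOBA, all under the level of 5 used in the filter, and 4.44, 5.23 and 5.58 at the lowest, median and highest of the 7 vehicle arrays. Only vehicle replicate 7, at 4.44, reached into the range with 2-HOBA. The difference was -0.96 (SE 0.19, limma adjusted p = 0.205) with all vehicle arrays, -0.88 (0.127) without the array labelled replicate 2 and -0.89 (0.0716) against replicates 4 to 7. Leaving out vehicle replicate 7 from the first comparison brought its limma adjusted p to 0.0144. On the arrays of Ang II alone Alox5 lay at 4.47 to 4.89.

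Of the 18 genes listed for eicosanoid synthesis, 13 were tested. In order of the 3 comparisons, 10, 10 and 12 of them lay lower with 2-HOBA, with a median of -0.46, -0.55 and -0.67, and none passed the test. The first median was -0.18 when 2-HOBA replicate 4 was left out. The list's mean level was 6.40 and 6.43 on 2-HOBA replicates 1 and 3, and 5.93 and 5.91 on replicates 2 and 4. It was 6.67 to 6.91 on vehicle replicates 4 to 7 and 5.66 to 6.33 on vehicle replicates 1 to 3. With 2-HOBA the level of Pla2g4a, the cytosolic phospholipase that frees arachidonic acid, was 5.23, 4.58, 4.92 and 4.94, and on vehicle replicates 4 to 7 it was 5.96, 5.84, 5.94 and 6.27. These ranges did not overlap, and the difference was -1.08 (SE 0.24, limma adjusted p = 0.0593). Pla2g4a was 5.11, 4.47 and 5.33 on vehicle replicates 1 to 3, within or near the range with 2-HOBA, and its difference against all 7 vehicle arrays was -0.64 (limma adjusted p = 0.834). Hpgds, a prostaglandin D synthase, differed by -0.53, -0.63 and -0.76, and Pla2g15, a lysosomal phospholipase, by -0.54, -0.55 and -0.67 in the 3 comparisons. In the fit with the array labelled replicate 2 out of the spread, 3 of the 13 fell.

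**Figure D2:**
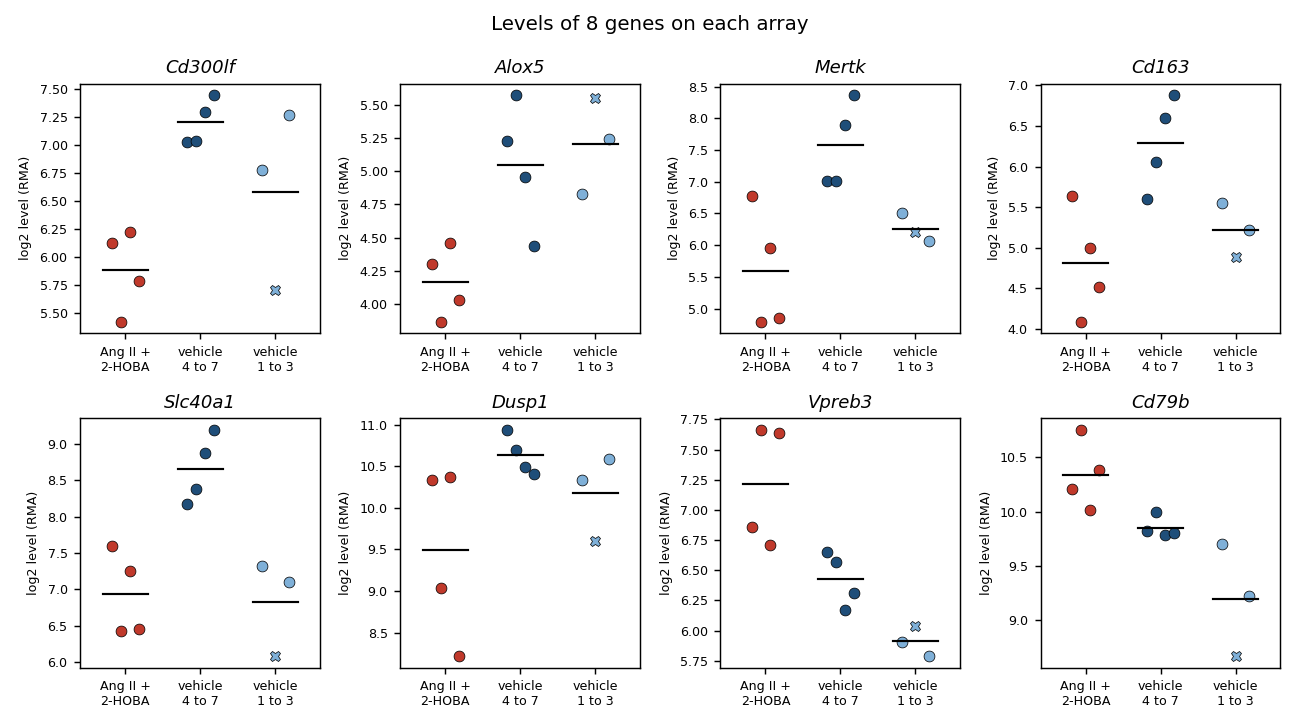
RMA log2 level (vertical axes, each with its own range) of 8 genes on each array of Ang II with 2-HOBA (4), vehicle replicates 4 to 7 (4) and vehicle replicates 1 to 3 (3), with bars at group means and a cross on the array labelled vehicle replicate 2. Cd300lf was 5.43 to 6.22 with 2-HOBA and 7.03 to 7.44 on vehicle replicates 4 to 7, while Slc40a1 was 6.43 to 7.59 with 2-HOBA, within reach of vehicle replicates 1 to 3 at 6.08 to 7.32.

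Markers of red pulp macrophages lay lower as a group with Ang II and 2-HOBA than with vehicle. Of 17 tested members (18 listed), 16, 16 and 17 lay lower in the 3 comparisons, with medians of -0.82, -0.98 and -1.27, the last beside -0.10 for all tested genes. None passed the test in these 3 comparisons, and 11, 16 and 16 had an unadjusted p below 0.05 on the lower side. All 4 arrays with 2-HOBA lay below vehicle replicates 4 to 7 for 13 of the 17. With the array labelled replicate 2 out of the spread as well, 7 of the 17 fell. On the 4 arrays of Ang II alone, which lie in both array sets, the list's mean level was 6.72 to 7.63. It was 6.26 to 7.52 with 2-HOBA, and these 2 groups were not tested against each other. In bulk RNA, fewer macrophages in the preparation and less of each transcript per cell cannot be told apart.

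Mertk, a receptor for dying cells, had log2 levels of 6.78, 4.79, 5.95 and 4.85 with 2-HOBA and of 7.01, 7.02, 7.90 and 8.37 on vehicle replicates 4 to 7. Vehicle replicates 1 to 3, at 6.51, 6.20 and 6.07, lay within the range with 2-HOBA. The difference was -1.98 (SE 0.37, limma adjusted p = 0.0534) against replicates 4 to 7, 3.95-fold higher with vehicle, and -1.42 (SE 0.39, limma adjusted p = 0.472) against all 7. Slc40a1, which encodes the iron exporter ferroportin, was 7.59, 6.43, 7.26 and 6.46 with 2-HOBA and 8.18, 8.37, 8.87 and 9.19 on vehicle replicates 4 to 7. Its difference was -1.72 (SE 0.37, limma adjusted p = 0.0593) there and -0.94 (0.834) against all 7 arrays. Cd163, the receptor for haptoglobin-haemoglobin complexes, was 5.64, 4.09, 5.00 and 4.52 with 2-HOBA and 5.61, 6.05, 6.60 and 6.88 on vehicle replicates 4 to 7, so that 2-HOBA replicate 1 reached the lowest of them. It differed by -1.02, -1.17 and -1.47 in the 3 comparisons (limma adjusted p = 0.798, 0.248 and 0.0593).

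The transferrin gene Trf (-1.39), the receptor kinase gene Axl (-1.48) and the integrin gene Itgad (-1.26) lay lower against vehicle replicates 4 to 7, with limma adjusted p values of 0.0593, 0.0668 and 0.0956. Against all 7 vehicle arrays their differences were smaller, at -0.82, -0.94 and -0.87, and the adjusted p was 0.834 for each. Hmox1, haem oxygenase 1, was 10.12, 9.35, 10.02 and 9.45 with 2-HOBA and 10.76, 10.68, 10.73 and 11.14 on vehicle replicates 4 to 7. The difference was -1.09 (SE 0.33, limma adjusted p = 0.165), and -0.81 (0.834) against all 7 vehicle arrays. Timd4, a receptor of resident macrophages, went against the list in the first comparison, at 0.12.

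The arrays with 2-HOBA did not lie together. The mean level of the red pulp macrophage list was 7.52 and 7.27 on 2-HOBA replicates 1 and 3 and 6.26 and 6.33 on replicates 2 and 4, against 7.75 to 8.60 on vehicle replicates 4 to 7 and 6.44 to 7.31 on vehicle replicates 1 to 3. The same replicates 2 and 4 had the lower scores on the component of control probe sets, -5.91 and -5.07 against 5.38 and 4.88, and the narrower interquartile ranges, 2.61 and 2.65 against 2.84 and 2.78. The part of these array properties in the macrophage result was not tested. Against vehicle replicates 4 to 7, limma called 0 genes without 2-HOBA replicate 2 or without replicate 4, with smallest adjusted p values of 0.468 and 0.295, and 56 and 73 genes without replicate 1 and without replicate 3.

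**Figure D3:**
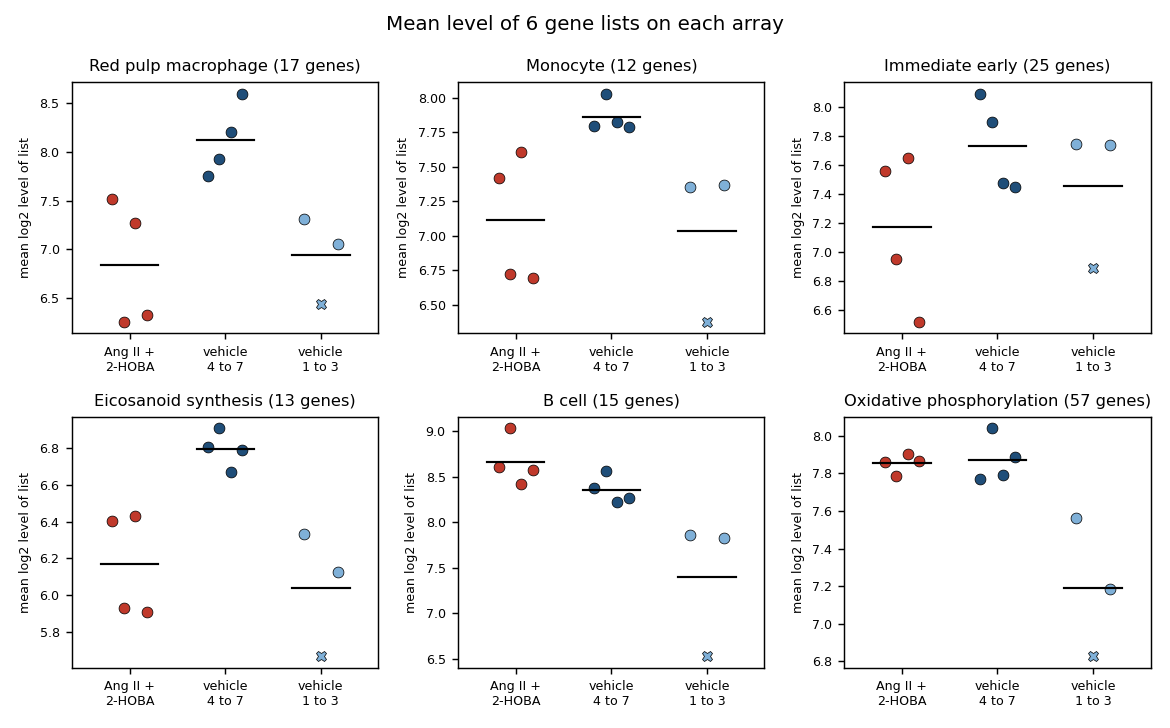
Mean RMA log2 level of the tested members of 6 gene lists (vertical axes, each with its own range) on each array, with the groups, bars and cross of the plot of single genes. The red pulp macrophage list was 6.26 to 7.52 with 2-HOBA, below all of vehicle replicates 4 to 7 (7.75 to 8.60) and overlapping replicates 1 to 3 (6.44 to 7.31), and the B cell list was 8.42 to 9.03 with 2-HOBA and 6.52 to 8.57 on all vehicle arrays.

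Monocyte genes lay lower in 9, 9 and 11 of 12 tested members, with medians of -0.49, -0.70 and -0.87, and none passed the test. The first median was -0.22 when 2-HOBA replicate 4 was left out. The list's mean level was 7.42 and 7.61 on 2-HOBA replicates 1 and 3, and 6.72 and 6.70 on replicates 2 and 4. It was 7.79 to 8.03 on vehicle replicates 4 to 7. Vehicle replicates 1 to 3, at 6.38 to 7.37, overlapped the arrays with 2-HOBA. On the arrays of Ang II alone the list's mean level was 6.99 to 7.45, given without a test. Cd14, the co-receptor for lipopolysaccharide, was 5.77, 4.43, 5.75 and 4.61 with 2-HOBA and 6.67, 7.15, 6.64 and 6.61 on vehicle replicates 4 to 7. The difference was -1.63 (SE 0.36, limma adjusted p = 0.0593), and -1.11 (0.811) against all 7 vehicle arrays, of which replicates 1 and 2 lay within the range with 2-HOBA at 5.30 and 4.95. Csf1r, the receptor for macrophage colony-stimulating factor, was 8.47, 7.05, 8.35 and 6.86 with 2-HOBA and 8.77 to 9.34 on vehicle replicates 4 to 7, a difference of -1.33 (SE 0.32, limma adjusted p = 0.079), and -0.70 (0.834) against all 7 vehicle arrays. Fcgr1, the high-affinity IgG receptor, was dim with 2-HOBA, at 4.06 to 4.48, and differed by -0.77, -0.80 and -1.03 (limma adjusted p = 0.811, 0.383 and 0.103).

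Apobr, Hcar2 and Sash1 were among the 10 genes of smallest p on the lower side in the first 2 comparisons. Apobr, a receptor for apolipoprotein B48, was 6.52, 6.16, 6.53 and 6.00 with 2-HOBA and 6.69, 6.90 and 7.12 at the lowest, median and highest vehicle array. The groups did not overlap in any of the 3 comparisons, and the differences were -0.60, -0.61 and -0.66 (SE 0.14, 0.13 and 0.15), with limma adjusted p values of 0.33, 0.156 and 0.0593. Hcar2, the receptor for nicotinic acid and beta-hydroxybutyrate, was 4.72, 4.07, 4.62 and 4.16 with 2-HOBA and 4.85 to 5.77 with vehicle, also without overlap. It differed by -0.997, -1.09 and -1.20, with limma adjusted p values of 0.465, 0.158 and 0.0593. Sash1, a scaffold protein of Toll-like receptor signalling, was 6.54, 5.66, 6.43 and 5.59 with 2-HOBA and 6.31 to 7.64 with vehicle, and differed by -0.94, -1.06 and -1.19.

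Immediate early genes, which encode transcription factors and phosphatases induced within minutes of a stimulus, lay lower with 2-HOBA in 23, 24 and 24 of 25 members, with medians of -0.39, -0.48 and -0.55. An unadjusted p below 0.05 was reached by 8, 13 and 10 of them on the lower side, and none passed the test. Dusp1, a phosphatase that inactivates MAP kinases (probe set 10449284), was 10.34, 9.04, 10.37 and 8.21 with 2-HOBA and 10.94, 10.70, 10.49 and 10.40 on vehicle replicates 4 to 7. The 2 highest values with 2-HOBA lay just below that vehicle range, and replicates 2 and 4 lay more than 1 log2 unit below it. The difference was -1.14 (SE 0.36, limma adjusted p = 0.179), and against all 7 vehicle arrays it went from -0.95 to -0.52 when 2-HOBA replicate 4 was left out.

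The AP-1 gene Junb differed by -0.63, -0.70 and -0.65 in the 3 comparisons, and the AP-1 gene Fosl2 by -0.71, -0.64 and -0.57, with limma adjusted p values of 0.407 and 0.459 in the third. Ier3, a stress-response gene, was 6.00, 5.09, 6.20 and 5.44 with 2-HOBA and 7.13, 7.32, 6.00 and 5.79 on vehicle replicates 4 to 7, so that replicates 6 and 7 overlapped the arrays with 2-HOBA and replicates 4 and 5 did not. The list's mean level likewise overlapped, at 6.52 to 7.65 with 2-HOBA and 7.45 to 8.09 on vehicle replicates 4 to 7. It was 7.55 and 7.65 on 2-HOBA replicates 1 and 3, and 6.95 and 6.52 on replicates 2 and 4. The list's median against all 7 vehicle arrays went from -0.39 to -0.20 when 2-HOBA replicate 4 was left out. Of the 21 listed genes with a RefSeq promoter, 3 (Btg2, Dusp1 and Maff) held TGACGTCA in at least 1 window of the kind described above. The share over all RefSeq windows was 1.55%, which counts windows and not genes, and the 2 were not tested against each other.

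Among cytokine genes, Cxcl2, a neutrophil-attracting chemokine, was 6.31, 4.25, 6.42 and 4.77 with 2-HOBA and 9.12, 9.27, 5.25 and 5.50 on vehicle replicates 4 to 7, a split within the vehicle group larger than the difference of -1.85 (SE 0.68, limma adjusted p = 0.284), which was -1.63 (0.834) against all 7. Il1b was 8.06, 6.90, 7.66 and 7.33 with 2-HOBA and 9.19, 9.08, 7.35 and 7.49 on the same vehicle arrays, and differed by -0.79 (SE 0.40, limma adjusted p = 0.48), and by -0.72 (0.834) against all 7. Neutrophil markers showed the same split of the vehicle arrays. Their mean level over 13 tested members was 6.93 and 7.63 on vehicle replicates 4 and 5 and 5.13 and 5.44 on replicates 6 and 7, against 5.54 to 6.26 with 2-HOBA, and their part in the Cxcl2 and Il1b values was not tested. Nlrp3, the inflammasome sensor, was 4.96, 4.51, 5.37 and 4.30 with 2-HOBA and 6.03, 6.32, 5.33 and 5.66 on vehicle replicates 4 to 7, and differed by -0.89, -0.86 and -1.05 (limma adjusted p = 0.472, 0.259 and 0.0837). Tnf differed by -0.08, -0.19 and -0.20 in the 3 comparisons, with intervals that included 0. Il12a, a subunit of interleukin 12, was 5.63, 5.69, 4.77 and 5.70 with 2-HOBA and 4.44, 4.95 and 5.01 at the lowest, median and highest vehicle array, and 3 of the 4 arrays with 2-HOBA lay above all vehicle arrays. Its differences were 0.63, 0.56 and 0.61 (limma adjusted p = 0.798, 0.47 and 0.296).

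B cell genes lay on the higher side with 2-HOBA in all 15 tested members and all 3 comparisons, with medians of 0.65, 0.46 and 0.28. The number with an unadjusted p below 0.05 went from 9 to 4 to 1, and none passed the test. Vpreb3, a member of this list, was 6.86, 7.66, 6.71 and 7.63 with 2-HOBA and 5.79, 6.17 and 6.65 at the lowest, median and highest vehicle array. All 4 arrays with 2-HOBA lay above all 7 vehicle arrays, with differences of 1.01, 0.98 and 0.79 (limma adjusted p = 0.472, 0.258 and 0.302). Cd79b, a signalling chain of the B cell receptor, was 10.21, 10.76, 10.02 and 10.39 with 2-HOBA and 9.82, 9.99, 9.78 and 9.80 on vehicle replicates 4 to 7. Its ranges did not overlap either, and its difference went from 0.77 against all vehicle arrays to 0.49. Cxcr5, the B cell follicle homing receptor, went from 1.11 to 0.52. The list's mean level was 8.42 to 9.03 with 2-HOBA, 8.22 to 8.57 on vehicle replicates 4 to 7 and 6.52 on the array labelled replicate 2. In a marker set of stroma and endothelium 7, 8 and 8 of 10 tested members lay higher, with medians of 0.42, 0.20 and 0.38. Its member Ccl19, a chemokine of the T cell zone, was 6.60, 7.03, 6.79 and 6.68 with 2-HOBA and 5.95, 6.36, 5.43 and 5.52 on vehicle replicates 4 to 7, while replicates 1 to 3, at 6.52, 7.21 and 6.40, overlapped the arrays with 2-HOBA. The mean level of the stroma and endothelium list was 5.80 to 5.97 with 2-HOBA and 5.84 and 6.03 on vehicle replicates 4 and 5, and was lower on vehicle replicates 6 and 7, at 4.99 and 4.94. All 4 arrays with 2-HOBA lay above vehicle replicates 6 and 7 and overlapped replicates 4 and 5.

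Of the 4 dendritic cell lists, 3 had medians near that of all tested genes against vehicle replicates 4 to 7. Pan-dendritic, cDC1 (conventional type 1) and plasmacytoid lists had medians of -0.14, -0.11 and -0.13 against vehicle replicates 4 to 7, beside -0.10 for all tested genes, and of 0.14, 0.10 and 0.24 against all 7. The cDC2 (conventional type 2) list had 11, 13 and 13 of 14 members lower, with medians of -0.15, -0.27 and -0.41. Its member Clec4a2, an inhibitory lectin, was 5.24, 4.92, 5.18 and 4.58 with 2-HOBA and 5.39, 6.10, 5.89 and 6.31 on vehicle replicates 4 to 7, a difference of -0.94 (SE 0.24, limma adjusted p = 0.0837), and -0.50 (0.834) against all 7 vehicle arrays. Kmo, an enzyme of tryptophan breakdown abundant in dendritic cells, differed by 0.74 against all vehicle arrays and by 0.06 against replicates 4 to 7, and its level on the array labelled replicate 2 was 5.47, against 7.05 to 8.68 on the other vehicle arrays.

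**Figure D4:**
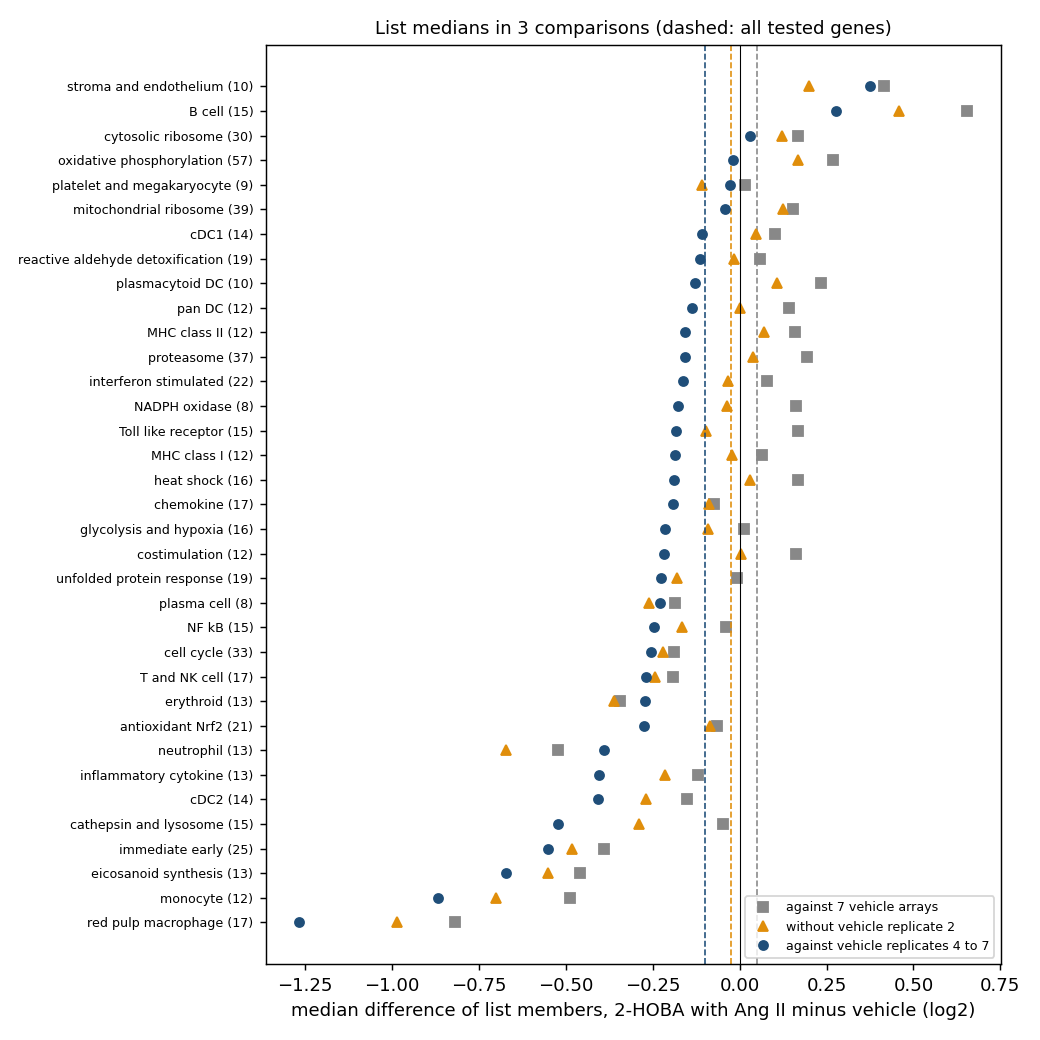
Median log2 difference (Ang II with 2-HOBA minus vehicle, horizontal axis) of the tested members of each list with at least 8 of them (number in parentheses), in the 3 comparisons; dashed lines are the medians of all tested genes (0.05, -0.02 and -0.10). Red pulp macrophage genes had the lowest median in each comparison (-0.82, -0.98 and -1.27), and the B cell list the highest in the first 2 but not the third, where stroma and endothelium (0.38) lay above it (0.28) against vehicle replicates 4 to 7.

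Genes of oxidative stress showed no difference past the test. Of 8 tested NADPH oxidase genes none passed in any comparison, and the list's median was 0.16, -0.04 and -0.18. Cybb was 9.26, 8.78, 9.37 and 8.54 with 2-HOBA and 9.24, 9.57, 9.26 and 9.32 on vehicle replicates 4 to 7. Its difference turned from 0.25 (95% interval -0.49 to 0.99) to -0.15 (-0.57 to 0.27) without the array labelled replicate 2 and was -0.36 (-1.03 to 0.31) against replicates 4 to 7. Cyba, which encodes the partner subunit p22phox, went from 0.13 to -0.17 and -0.38, and Ncf1, which encodes the organiser subunit p47phox, from 0.19 to 0.08 and -0.09. Of 21 tested antioxidant genes none passed, 13, 13 and 18 lay lower, and the medians were -0.06, -0.09 and -0.27. Gsr, glutathione reductase, was 7.67, 6.61, 7.79 and 6.64 with 2-HOBA and 7.81 to 8.74 on vehicle replicates 4 to 7, a difference of -1.02 (SE 0.29, limma adjusted p = 0.135), and -0.84 (0.798) against all 7 vehicle arrays.

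The enzymes that clear reactive aldehydes, 19 tested, had medians of 0.06, -0.01 and -0.11, close to those of all tested genes, and none passed. Aldh2, the mitochondrial aldehyde dehydrogenase, was 6.62, 6.74, 6.43 and 6.50 with 2-HOBA and 6.55, 6.78, 6.67 and 6.74 on vehicle replicates 4 to 7. Its difference was -0.11 (95% interval -0.58 to 0.35) there and 0.17 (-0.29 to 0.64) with all vehicle arrays, which include the array labelled replicate 2 at 5.27. Gstm1, a glutathione transferase, differed by 0.42, 0.31 and 0.34. In the renin-angiotensin list, 3 of 14 genes were tested. Ace, the angiotensin-converting enzyme, was 5.84, 5.59, 6.97 and 5.15 with 2-HOBA and 6.73, 6.84, 7.16 and 6.50 on vehicle replicates 4 to 7, a difference of -0.92 (SE 0.36, limma adjusted p = 0.338) with 2-HOBA replicate 3 inside the vehicle range. Against all 7 vehicle arrays Ace differed by -0.74 (limma adjusted p = 0.834). Agtr1a, the Ang II receptor, did not reach the level of 5 on 3 arrays.

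Costimulatory genes did not differ past the test. Their medians were 0.16, 0.00 and -0.22 over 12 tested members. Cd80, a ligand of CD28, differed by 0.22 (95% interval -0.43 to 0.87), -0.11 (-0.53 to 0.31) and -0.29 (-0.89 to 0.31) in the 3 comparisons. Cd86, the other CD28 ligand, was 7.25, 6.91, 7.32 and 7.03 with 2-HOBA and 7.32, 7.63, 7.54 and 7.83 on vehicle replicates 4 to 7, and differed by -0.45 (SE 0.22, limma adjusted p = 0.476) against 0.13 with all vehicle arrays. Cd40, the receptor for T cell help, was 7.20, 7.50, 7.17 and 7.36 with 2-HOBA and 7.02, 7.29, 7.08 and 7.05 on vehicle replicates 4 to 7, a difference of 0.20, and the 0.54 against all vehicle arrays included the array labelled replicate 2 at 5.37. Cd200, which signals to an inhibitory receptor on myeloid cells, was 6.30, 6.31, 6.06 and 6.23 with 2-HOBA and 5.95, 5.92, 5.79 and 5.46 on vehicle replicates 4 to 7, without overlap, and differed by 0.44 (SE 0.20, limma adjusted p = 0.406), and by 0.37 (0.834) against all 7.

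Lysosomal and mitochondrial genes depended on which vehicle arrays were used. Of 15 tested cathepsin and lysosome genes, 9, 13 and 15 lay lower, with medians of -0.05, -0.29 and -0.52. Ctsd, cathepsin D, was 9.29, 8.10, 9.31 and 8.37 with 2-HOBA and 9.84, 9.89, 9.74 and 10.20 on vehicle replicates 4 to 7, but 8.75, 8.60 and 8.79 on replicates 1 to 3, and differed by -0.63, -0.76 and -1.15. Of 57 oxidative phosphorylation genes 54 lay higher against all vehicle arrays, with a median of 0.27, and 25 lay higher against replicates 4 to 7, with a median of -0.02. Their mean level was 7.79 to 7.90 with 2-HOBA, 7.77 to 8.04 on vehicle replicates 4 to 7 and 6.83 to 7.56 on vehicle replicates 1 to 3. The part of the array sets in this turn was not tested. Cell cycle genes lay lower in 24, 29 and 29 of 33 tested members, with medians of -0.19, -0.22 and -0.26. Incenp, of the chromosomal passenger complex, was 6.40, 6.03, 6.16 and 6.15 with 2-HOBA and 6.49, 6.76 and 7.64 at the lowest, median and highest vehicle array, without overlap, and differed by -0.72, -0.60 and -0.51 (limma adjusted p = 0.472, 0.272 and 0.342).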

How the data were processed

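Per the labels, total RNA of splenic dendritic cells was extracted with Trizol and hybridised as biotin-labelled cRNA, 1 array per sample. The authors deposited 1 log2 value per probe set and array, and per the submitters' processing notes these came from RMA and Partek 6.6. RMA settings are not given in the sources used here. All 35556 probe sets ran from 0.90 to 14.34. Because RMA shrinks differences of dim probe sets, low genes can show less than their true fold, and precision is limited by the number of arrays.

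Names came from the platform annotation: 21789 probe sets carried 1 symbol, 1621 several and 12146 none, and 21698 of the first matched NCBI RefSeq by Entrez identifier. Where a gene had several probe sets, that with the highest mean was kept. limma 3.58.1 in R 4.3.3 fitted 6 group means over all 28 arrays (7 with the vehicle arrays split), with eBayes, two-sided tests and Benjamini-Hochberg adjustment over 10452 genes. Scripts were tested on simulated data. Errors after ± are SDs, intervals are 95%, and adjusted p values are limma's.

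The comparison, the named genes and the 37 gene lists (758 genes) were chosen with earlier results of these data known, so lists are described by counts and medians and were not tested. Named genes were 12 panel genes, the 10 smallest p values in each direction of each comparison (largest differences if called) and up to 4 genes with the smallest p per list, leaving out predicted genes and multigene families. Timd4, Btg2 and Maff fell outside this rule and were chosen after their values were seen. Same-numbered replicates deviated with correlations of -0.13, 0.15, -0.14 and -0.26, and the numbers were not used as pairs. Such correlations cannot show if samples were processed in pairs. Alternatives covered the filter, normalization, array weights, arrays used, replicate and array set blocks, probe set choice and leaving out each array.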

Additional observations from a re-analysis of the deposited data

Results flagged for a closer look

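In 150 checks of a group of arrays on 1 gene or summary value, 15 had 1 array far from the others by Dixon's criterion at 95%, and chance alone gives about 1 in 20. Of these, 9 fell on the array labelled vehicle replicate 2. There the log2 level was 5.71 for Cd300lf (6.78 to 7.44 on the other 6 vehicle arrays), 4.27 for Cacna1i (4.93 to 5.36), 3.79 for Cd80 (5.69 to 6.66), 5.37 for Cd40 (6.78 to 7.29), 6.34 for Cybb (8.51 to 9.57) and 5.27 for Aldh2 (6.16 to 6.78). Its mean correlation with all other arrays was 0.852 (0.935 to 0.956), its mean level of the monocyte list 6.38 (7.35 to 8.03) and of the B cell list 6.52 (7.82 to 8.57).

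The flags on other arrays were no more frequent than that chance rate over all checks. Elsewhere in the vehicle group, Tmem273, a transmembrane protein gene, was 6.67 on replicate 7 (5.31 to 5.77 on the others), and Apba1, which encodes an adaptor of membrane protein traffic, was 5.29 on replicate 6 (4.87 to 5.03). Among the 4 arrays with 2-HOBA, Phospho1, a phosphatase gene, was 4.16 on replicate 4 (4.65 to 4.71 on the others), Apba1 was 3.86 on replicate 2 (4.41 to 4.49), Il12a was 4.77 on replicate 3 (5.63 to 5.70) and Cd80 was 5.12 on replicate 2 (6.17 to 6.37).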

How the results depend on the processing

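The count of 0 called genes with all 7 vehicle arrays rose to 108 (100 lower with 2-HOBA) with array weights, and ran from 0 to 1 when each array was left out, Cd300lf without the array labelled vehicle replicate 2 and Alox5 without vehicle replicate 7; limma found 602 genes at an unadjusted p below 0.05. Without the array labelled replicate 2, the count of 1 was 156 with array weights, 3 on the arrays compared alone, 30 with the array set as a block and 0 with the replicate block, and 0 to 2 when each other array was left out. Against vehicle replicates 4 to 7, the count of 0 (1137 at an unadjusted p below 0.05) was 456 with array weights, 12 on the arrays compared alone, 73 with the array labelled replicate 2 out of the spread and 33 with a common array median, and 0 to 73 when each array was left out, with 4 without vehicle replicate 5. The cause of these shifts was not tested. The alternatives for the comparisons with fewer vehicle arrays were added after seeing the data.

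With the replicate number as a block, 0 genes were called with all vehicle arrays, and if the numbers mark pairs is not known. Of 64 genes, 58 kept the sign of their difference in every one of up to 22 settings, the others being Aldh2, Cd80, Cd86, Cyba, Cybb and Ncf1, and 12 of 37 list medians did. The red pulp macrophage median ran from -1.27 to -0.44 and the B cell median from 0.28 to 0.79. Signal over background was limited here by the level of 5, since no detection calls were used.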

Other observations

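None of the members of the following lists passed limma's test with all 7 vehicle arrays or against vehicle replicates 4 to 7, where all tested genes had medians of 0.05 and -0.10. Proteasome genes had medians of 0.19 and -0.16 in these comparisons, with 34 and 5 of 37 tested members higher. Mitochondrial ribosome genes had 0.15 and -0.04, cytosolic ribosome genes 0.17 and 0.03, and heat shock genes 0.17 and -0.19. Interferon-stimulated genes had 0.08 and -0.16, MHC class I genes 0.06 and -0.19 and MHC class II genes 0.16 and -0.16. Genes of the unfolded protein response had -0.01 and -0.23, and T and NK cell markers -0.19 and -0.27. Erythroid markers had 12 of 13 tested members lower in both, with medians of -0.35 and -0.27.

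Serpinb1a, an inhibitor of neutrophil proteases, had the largest difference among the 10 genes of smallest p on the higher side with all vehicle arrays, at 1.14 (SE 0.30, limma adjusted p = 0.472). Its log2 level was 8.07, 8.45, 7.78 and 8.17 with 2-HOBA, 7.53, 7.88, 7.21 and 7.63 on vehicle replicates 4 to 7 and 5.32 on the array labelled replicate 2, and its difference was 0.55 against replicates 4 to 7. Chil5, a chitinase-like protein gene, was 5.31, 5.08, 4.76 and 4.83 with 2-HOBA and 3.69 to 4.19 on the 7 vehicle arrays, without overlap and mostly under the level of 5, a difference of 1.01 (SE 0.27, limma adjusted p = 0.472). On the 4 arrays of Ang II alone Chil5 was 3.12 to 5.08.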
